A study of Rattus norvegicus with 16 samples.

Results

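The complement genes of the renal table were examined in rats with streptozotocin-induced diabetic nephropathy (DN) and in DN rats treated with sinomenine (SIN), a plant alkaloid. They were taken by gene name as C1qa, C1qb, C1qc, C1s, C2, C3, Cfb, Cfi and Serping1. These 9 names matched 10 of the 35849 genes in the table, because Cfb stands there under 2 Ensembl identifiers. Kidney RNA was sequenced from 16 male SD rats, 4 per group, that were 6 to 8 weeks old when the experiment began. The DN group and both SIN groups had been injected with streptozotocin at 45 mg/kg, had then exceeded a blood glucose of 16.7 mmol/L, and ate a diet rich in glucose and fat. The normal group was injected with citrate buffer instead and ate normal chow. The SIN (20 mg/kg) group and the SIN (40 mg/kg) group were dosed with SIN each day for 8 weeks, and the DN group was not. The diabetes was chemically induced, the part of the kidney sampled is not stated, and the RNA came from renal tissue rather than sorted cells. Fewer cells of one type and less RNA per cell therefore cannot be told apart in any value given here.

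Complement is a cascade of plasma proteins that tags and lyses microbes and damaged cells. C1q, a hexamer built from the C1qa, C1qb and C1qc chains, recognises antibodies and dying cells and switches on the proteases C1r and C1s, which cleave C4 and C2 to form the C3 convertase of the classical pathway. C3 is the central component, factor B (Cfb) carries the protease of the alternative pathway convertase, factor I (Cfi) inactivates C3b and C4b, and C1 inhibitor (Serping1) blocks C1r and C1s. C1q is made mainly by macrophages, whereas renal epithelium and stromal cells can make C3, C1s, factor B and C1 inhibitor.

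The total per rat lay within 19616312 to 25217030 estimated counts, and levels are in CPM, a gene's count set against its library's normalized total. All 10 markers of renal epithelium were above 0 in every rat and summed to 9964 to 13857 CPM, as kidney tissue should. Library serial numbers are consecutive inside each group, and the labels do not say what the numbers record, so anything that follows them cannot be told apart from the condition. Normal rat 2 stood apart from the other normal rats in several members, and results that rest on it are given with and without it. Nothing in the labels places same-numbered rats in a shared litter or cage, so p-values measure the spread between these rats.

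Per kilobase of gene length (RPKM), the order of the levels was the same at its ends in all 4 groups. Serping1 was the most abundant member, with group means from 44.4 to 65.8 RPKM. C1qc at 26.9 to 30.3 RPKM, C1s at 27.7 to 29.6 RPKM and C1qa at 22.5 to 25.6 RPKM followed, and C1qb was at 15.8 to 18.7 RPKM. C1s overlapped both C1qc and C1qa within the group SDs and was not separated from them, whereas C1qc was above C1qa in every rat. C2 at 4.89 to 5.63 RPKM and C3 at 3.32 to 4.33 RPKM were lower, and they too overlapped within their SDs. The Cfb gene ENSRNOG00000051158 was at 2.29 to 3.69 RPKM and Cfi at 1.14 to 2.90 RPKM, while the Cfb gene ENSRNOG00000000419 was at 0.199 to 0.521 RPKM.

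**Figure D1:**
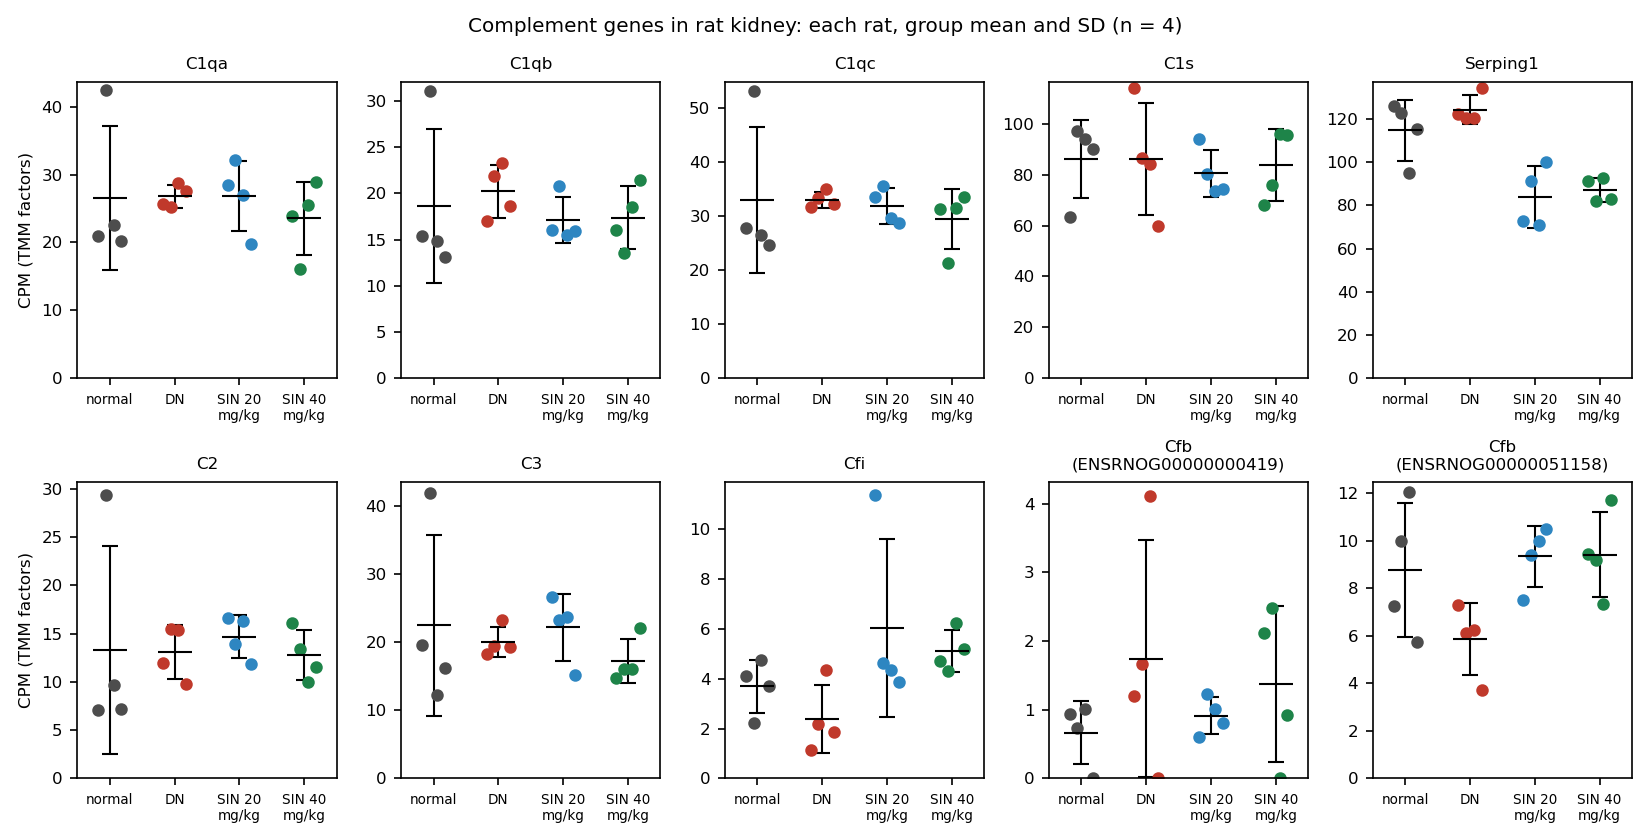
CPM of each complement gene (y axis, linear from 0, a separate scale per panel) in the 4 rats of each group (x axis), with the group mean and SD as bars. In C1qa, C1qb, C1qc, C2 and C3 the highest point of the plot is normal rat 2, and in Serping1 the rats of both SIN groups lie below the DN rats.

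The promoters of C1qa, C1qb and C3 are shown because the transcripts of these genes varied together from rat to rat, as described further on. Each is the 250 bases before the start of the gene in RefSeq, build GRCr8, written 5′ to 3′ on the gene's own strand. Promoters were matched for 4 of the 9 names, the fourth being Cfi. Capitals mark matches on either strand to 4 motifs searched for, namely TATAAA, which is the core of the TATA box, TTGCNNAA (bound by C/EBP factors), AGGAAG (bound by ETS factors) and the interferon response element.
C1qa, chr5:154419934-154420183, minus strand: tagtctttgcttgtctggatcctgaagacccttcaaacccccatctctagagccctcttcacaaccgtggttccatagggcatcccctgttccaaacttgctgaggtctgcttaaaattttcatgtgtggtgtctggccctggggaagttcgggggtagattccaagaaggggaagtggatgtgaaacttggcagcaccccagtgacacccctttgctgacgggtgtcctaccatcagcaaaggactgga
C1qb, chr5:154407828-154408077, minus strand: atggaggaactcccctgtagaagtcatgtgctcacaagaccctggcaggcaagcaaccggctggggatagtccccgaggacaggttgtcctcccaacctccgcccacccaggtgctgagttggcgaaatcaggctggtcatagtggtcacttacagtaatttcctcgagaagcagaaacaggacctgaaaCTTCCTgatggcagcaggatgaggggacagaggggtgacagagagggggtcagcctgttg
C3, chr9:2201340-2201589, minus strand: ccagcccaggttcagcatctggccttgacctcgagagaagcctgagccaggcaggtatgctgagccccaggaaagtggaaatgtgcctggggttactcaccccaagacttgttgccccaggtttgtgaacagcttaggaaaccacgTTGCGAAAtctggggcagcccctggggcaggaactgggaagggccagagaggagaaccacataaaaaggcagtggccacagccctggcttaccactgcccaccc

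The capitals in C1qb are AGGAAG read on the opposite strand, from -60 to -55 of the start. The capitals in C3 are a TTGCNNAA match from -104 to -97. C1qa and Cfi held none of the 4 motifs in this window. Of 33469 rat promoters of the same length, 29.5% held AGGAAG, 9.22% TTGCNNAA, 12.9% TATAAA and 3.41% the interferon response element, so a match to the first of these is common. In the RefSeq gene table of the same build C1qb, C1qc and C1qa follow each other on chromosome 5 with 0 genes between them, and so do C2 and Cfb on chromosome 20.

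In the DN group against the normal group, 0 of the 10 complement genes had an adjusted p under 0.05 in edgeR's quasi-likelihood test, whereas 19.5% of the 15775 genes tested did. DESeq2 and edgeR's exact test also called 0 members, beside 26.4% and 21.5% of all genes, and 0 had an unadjusted p under 0.05, which 36.9% of all genes had. When an absolute log2 value of 1 or more was required too, 0 members passed beside 3.8% of all genes. The median log2 fold change of the 10 members was 0.00 and that of all genes tested was also 0.00. The SD of CPM was larger in the normal than in the DN group in 7 members and smaller in 3, C1s, Cfi and Cfb (ENSRNOG00000000419). In C1qa, C1qb, C1qc, C2 and C3 the highest normal value was that of normal rat 2, and in C1s it was so by a small margin.

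C1qa (ENSRNOG00000012807) was at 21.0, 42.4, 22.5 and 20.2 CPM in normal rats 1 to 4 and at 25.6, 25.2, 28.8 and 27.6 CPM in DN rats 1 to 4. C1qb (ENSRNOG00000012749) was at 15.4, 31.1, 14.9 and 13.1 CPM in the normal rats and at 17.04, 21.8, 23.3 and 18.7 CPM in the DN rats. C1qc (ENSRNOG00000012804) was at 27.7, 53.1, 26.4 and 24.7 CPM in the normal rats and at 31.6, 33.3, 34.9 and 32.1 CPM in the DN rats. All 3 chains were highest in normal rat 2, and in all 3 every DN rat lay above the other 3 normal rats, so the groups overlapped through that rat alone. Of all genes tested in this comparison, 24.3% had groups that did not overlap, and 0 of the members did. C2 (ENSRNOG00000051235), the serine protease that C1s cleaves, was at 7.03, 29.4, 9.70 and 7.16 CPM in the normal rats and at 11.9, 15.4, 15.4 and 9.76 CPM in the DN rats. It had the same arrangement, with DN rat 4 only just above normal rat 3. The counts of C2 may be shared with the Cfb genes, as described further on.

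With all 8 rats the log2 fold change of DN over normal, with its standard error (SE), was 0.02 for C1qa (SE 0.22), 0.12 for C1qb (0.26), 0.01 for C1qc (0.22) and -0.01 for C2 (0.44). Their adjusted p in edgeR's quasi-likelihood test was 0.957, 0.757, 0.987 and 0.985. Without normal rat 2 the log2 fold change of C1qa was 0.33 (SE 0.10) and its adjusted p 0.0440 by the same edgeR test. C1qb reached 0.48 (SE 0.14, adjusted p = 0.0432, edgeR), C1qc 0.32 (SE 0.09, adjusted p = 0.0346, edgeR) and C2 0.71 (SE 0.21, adjusted p = 0.0415, edgeR). So 4 of 10 members were called higher without that rat, beside 10% of the 16017 genes tested in that fit. In the same fit 17% of genes had every DN rat above the 3 normal rats, and the 4 members were among them. That rat was singled out after its values were seen. It was the highest normal rat in these same 4 genes, so leaving it out had to raise their log2 fold changes. The 3 C1q chains among them also varied together, so the 4 of 10 cannot be weighed against the 10%. Leaving out any other single rat of this comparison gave 0 called members.

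**Figure D2:**
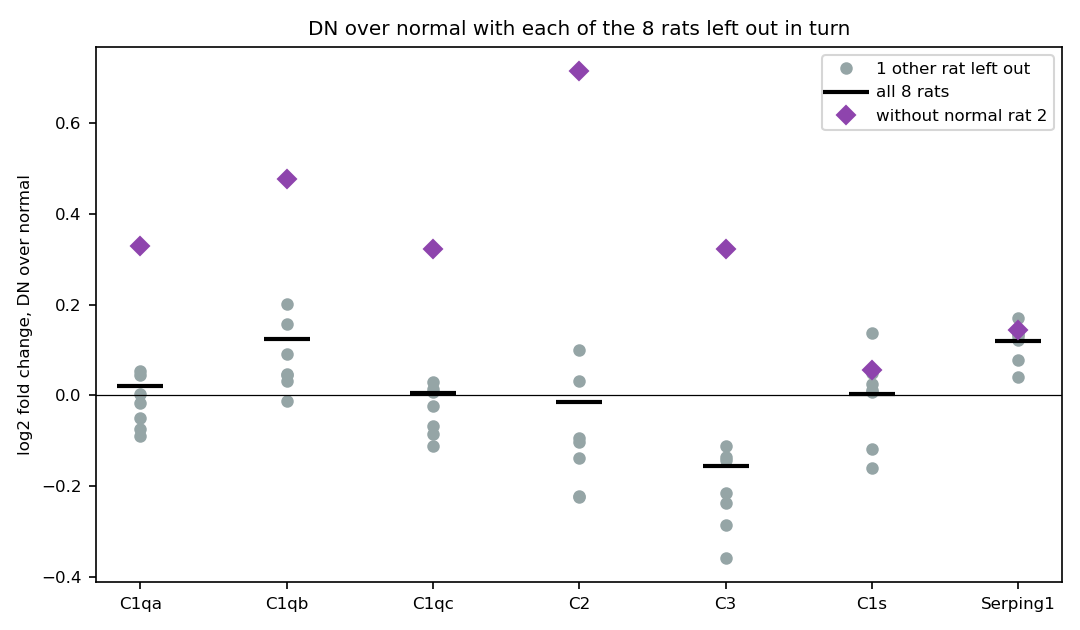
Log2 fold change of DN over normal (y axis) for 7 complement genes (x axis) with all 8 rats (bar) and with each rat left out in turn (grey points, diamond for normal rat 2). C1qa, C1qb, C1qc, C2 and C3 lie at 0.32 to 0.71 without normal rat 2, above every other point of the same gene, while C1s and Serping1 without that rat lie among their other points.

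Normal rat 2 differed from the other normal rats in more than complement. Among the 10 members, by whose values it was singled out, it held the highest value of its group in 6. It also did so in 12 of 17 macrophage markers, against 30.1% of all 16404 genes. Its macrophage markers summed to 1731 CPM, and those of the other normal rats to 870 to 1235 CPM. The DN rats had sums of 973 to 1080 CPM, the SIN (20 mg/kg) rats 908 to 1188 CPM and the SIN (40 mg/kg) rats 935 to 1092 CPM, and all 17 markers were above 0 in every rat. Much of each sum came from Cd74, the invariant chain of class II molecules, at group means of 494 to 695 CPM, and from Lyz2 at 284 to 314 CPM. Cd74 is also expressed by other antigen-presenting cells.

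With all rats, 1 of 16 tested macrophage markers was called between DN and normal, beside 19.5% of all genes. It was Ptprc, at a log2 fold change of -0.81 (SE 0.22, adjusted p = 0.0328, edgeR). Without normal rat 2, 3 of 16 tested macrophage markers were called, Csf1r, Fcer1g and Cd68, all 3 higher in DN. In that fit 10% of all genes were called higher. The list's median moved from -0.00 to 0.16, and its remaining tested markers were not called. The C1q calls and these marker calls thus appeared in the same fit. Per 100 CPM of the macrophage list, summed C1q ran from 4.70 CPM in normal rat 4 to 9.75 CPM in SIN (20 mg/kg) rat 2. In normal rat 2 it was 7.32 CPM. The part of macrophage content in the C1q values was not tested.

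**Figure D3:**
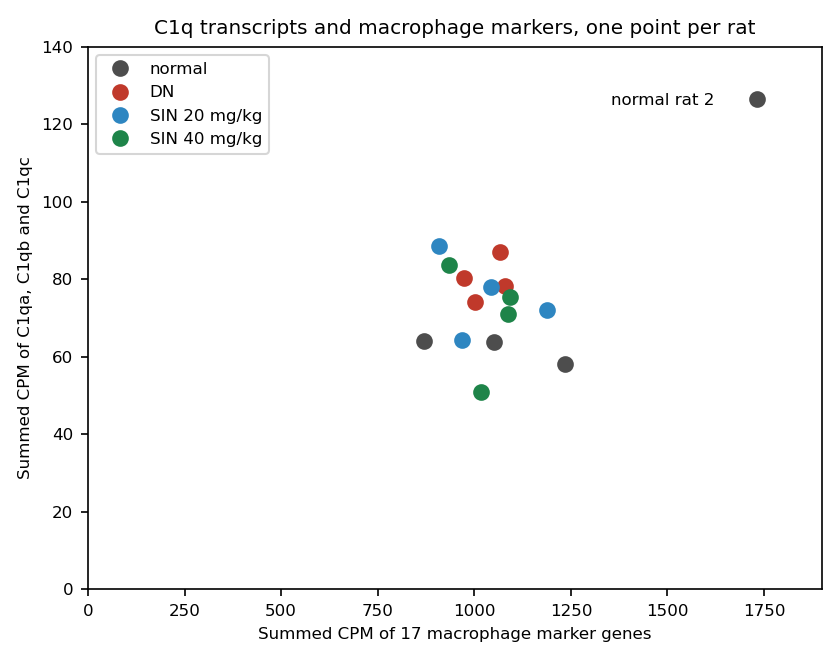
Summed CPM of C1qa, C1qb and C1qc (y axis) against the summed CPM of 17 macrophage markers (x axis), 1 point per rat, coloured by group. Normal rat 2 stands alone at 127 and 1731 CPM, and the other 15 rats lie between 50.8 and 88.6 CPM of C1q. Of these 15, SIN (20 mg/kg) rat 2 had the highest C1q at a macrophage sum of 908 CPM. Normal rat 4 had the highest macrophage sum, 1235 CPM, at 58.0 CPM of C1q.

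The 3 chains of C1q kept their order in every rat, while their shares varied. Of their summed RPKM, C1qc took 39.3 to 43.9% in the 16 rats, C1qa 31.5 to 38.4% and C1qb 20.4 to 27.0%. C1qc was the highest chain and C1qb the lowest in every rat, normal rat 2 included, where the shares were 41.4%, 34.3% and 24.3%. The summed C1q level was 58.0 to 127 CPM in the normal group, 74.3 to 87.1 CPM in the DN group, 64.4 to 88.6 CPM in the SIN (20 mg/kg) group and 50.8 to 83.7 CPM in the SIN (40 mg/kg) group. The DN group was the narrowest and the normal group the widest of the 4.

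Over the 16 rats, log2 CPM of C1qa and C1qc correlated with Pearson's r = 0.95 and Spearman's rho = 0.92 (permutation p = 1e-05 for each, the smallest that 100000 resamples can give, and Benjamini-Hochberg adjusted p = 0.000225 over 45 pairs of members). C1qb and C1qc had r = 0.91 and rho = 0.92 with the same permutation p, and C1qa and C1qb had r = 0.85 (permutation p = 5e-05, adjusted p = 0.00075) and rho = 0.80 (permutation p = 0.00023, adjusted p = 0.00345). Without the 2 rats farthest from the median these were 0.86, 0.83 and 0.70. The relation thus held within the bulk of the rats. Taken as deviations from the group means, which removes any difference between groups, r was 0.94, 0.93 and 0.88.

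C3 followed the C1q chains less closely. C3 (ENSRNOG00000046834) was at 19.5, 41.9, 12.3 and 16.1 CPM in the normal rats and at 18.2, 19.4, 23.2 and 19.3 CPM in the DN rats. Normal rat 2 was again the highest, and normal rat 1 lay within the DN range. The log2 fold change of DN over normal was -0.16 (SE 0.33, adjusted p = 0.758, edgeR), and 0.32 (SE 0.17, adjusted p = 0.193, edgeR) without normal rat 2. Across rats C3 and C1qa had r = 0.80 (permutation p = 0.00032, adjusted p = 0.0036) and rho = 0.76 (permutation p = 0.00108, adjusted p = 0.0122), and r = 0.72 without the 2 farthest rats. C3 and C1qb had r = 0.72 (permutation p = 0.00216, adjusted p = 0.0139) and rho = 0.52 (permutation p = 0.0417, adjusted p = 0.188), and r was 0.42 without normal rat 2 and DN rat 3, so that relation rests largely on those rats.

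Of all genes kept over the 16 rats, those most like the mean of the 3 C1q chains were Itgal (r = 0.86), an integrin chain of leukocytes, Ncf1 (0.82), a subunit of the phagocyte NADPH oxidase, MSTRG.20251 (0.81), which is an assembled transcript with no gene name, Relt (0.81) and C3 (0.80). Without the 2 farthest rats their r was 0.78, 0.68, 0.88, 0.65 and 0.64. C3 was most like C1qa (0.80), C1qc (0.79), the Fc receptor gene Fcgr3a (0.77), Nsun3 (0.76) and Il2rb (0.76), a chain of interleukin receptors. These r are the highest of 16401 and 16403 genes and carry no test.

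C1s did not share the pattern. C1s (ENSRNOG00000011971) was at 63.5, 97.2, 94.1 and 90.3 CPM in the normal rats and at 114, 86.6, 84.2 and 60.0 CPM in the DN rats. Normal rat 1 and DN rat 4 were the low ones, DN rat 1 was the high one, and the groups overlapped throughout. Its log2 fold change was 0.00 (SE 0.19, adjusted p = 0.993, edgeR), with a 95% interval of -0.37 to 0.38. In the SIN groups C1s was at 94.0, 80.2, 73.8 and 74.5 CPM at 20 mg/kg and at 68.3, 75.9, 96.0 and 95.6 CPM at 40 mg/kg, within the range of the DN rats.

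In each SIN group against the DN group, 0 of the 10 members passed an adjusted p under 0.05 in edgeR's quasi-likelihood test, and the share of all genes called was 0% at 20 mg/kg and 0% at 40 mg/kg. An unadjusted p under 0.05 was reached by 3 members at each dose, Serping1, Cfi and Cfb (ENSRNOG00000051158), beside 15.4% of 15724 genes at 20 mg/kg and 17.1% of 15530 genes at 40 mg/kg. Serping1 was the lower one and the other 2 were the higher ones at both doses. DESeq2 and edgeR's exact test each called 1 member at each dose, Serping1. DESeq2 called 1.74% of the genes to which it gave an adjusted p at 20 mg/kg and 3.1% at 40 mg/kg, and the exact test 0.566% and 1.04% of all genes tested. Both comparisons use the same 4 DN rats.

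Serping1 (ENSRNOG00000007457) was at 126, 123, 94.8 and 116 CPM in the normal rats and at 122, 121, 120 and 134 CPM in the DN rats. It was at 72.7, 91.4, 70.8 and 100 CPM in the SIN (20 mg/kg) rats and at 91.3, 82.0, 92.9 and 82.8 CPM in the SIN (40 mg/kg) rats. All 8 SIN rats lay below all 4 DN rats, and the DN rats were close to the normal rats except for normal rat 3, which was lower. Groups separated downward in 3.65% of all genes tested at 20 mg/kg and in 3.99% at 40 mg/kg.

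The log2 fold change of Serping1 was -0.58 (SE 0.12, adjusted p = 0.27, edgeR) at 20 mg/kg and -0.51 (SE 0.08, adjusted p = 0.148, edgeR) at 40 mg/kg, so its level was 0.671 and 0.702 of the DN level. By p it ranked 51 of 15724 genes at 20 mg/kg and 10 of 15530 genes at 40 mg/kg. DESeq2 gave adjusted p = 0.00689 and 9.70e-06, and edgeR's exact test adjusted p = 0.0315 and 0.00403. Over the 16 alternatives the adjusted p in edgeR or DESeq2 ranged from 0.00689 to 0.544 at 20 mg/kg and from 9.70e-06 to 0.392 at 40 mg/kg. The fold change was stable when single rats were left out, between -0.67 and -0.50 at 20 mg/kg and between -0.54 and -0.47 at 40 mg/kg.

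Against the normal group, Serping1 had a log2 fold change of -0.46 in the SIN (20 mg/kg) group (SE 0.14, adjusted p = 0.0846, edgeR) and of -0.40 in the SIN (40 mg/kg) group (SE 0.10, adjusted p = 0.0534, edgeR). All SIN (40 mg/kg) rats were below all normal rats, as in 7.1% of genes in that comparison, while at 20 mg/kg SIN rat 4 lay above normal rat 3. It was the sole member with an unadjusted p under 0.05 in either comparison, beside 20.8% and 22.9% of all genes, and 0 of 10 members had an adjusted p under 0.05 beside 6.36% and 5.97% of all genes. DESeq2 gave adjusted p = 0.0305 at 20 mg/kg and 0.0134 at 40 mg/kg, and edgeR's exact test adjusted p = 0.0392 and 0.0217. In these comparisons DESeq2 called 10.9% and 11.2% of all genes with an adjusted p, and the exact test 9.06% and 9.61% of all genes tested. The log2 fold change of DN over normal was 0.12 (SE 0.10, adjusted p = 0.427, edgeR). The 95% interval of that difference was -0.08 to 0.32, so a difference between the normal and DN groups was not detected.

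Some fibroblast and mesangial markers were lower in the SIN groups as well. Of 9 tested, 4 had an unadjusted p under 0.05 and a lower level at each dose, and 0 had an adjusted p under 0.05 in edgeR's quasi-likelihood test. Of all genes, 15.4% at 20 mg/kg and 17.1% at 40 mg/kg had an unadjusted p under 0.05 in either direction. The log2 fold changes of 2 of the 9 were above 0 at each dose, Pdgfra (0.16 at both) and Itga8 (0.07 at 20 mg/kg and 0.21 at 40 mg/kg). Col1a1, a chain of fibrillar collagen, had a log2 fold change of -0.89 (SE 0.21, adjusted p = 0.27, edgeR) at 20 mg/kg and -0.82 (SE 0.18, adjusted p = 0.175, edgeR) at 40 mg/kg. The summed level of the list was 494 to 941 CPM in the DN rats, 428 to 556 CPM in the SIN (20 mg/kg) rats, 472 to 581 CPM in the SIN (40 mg/kg) rats and 429 to 573 CPM in the normal rats. The sums of the SIN groups overlapped those of the DN group. Of the single markers, Acta2 (log2 fold change -1.25) and Pdgfrb (-0.39) lay below all DN rats at 20 mg/kg, and Col1a1 did at 40 mg/kg. The other markers of the list overlapped the DN rats at each dose. Such a downward separation was found in 3.65% of all genes at 20 mg/kg and in 3.99% at 40 mg/kg. The part of these markers in the Serping1 result was not tested.

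The 5 genes most like Serping1 over the 16 rats were Misp3 (r = 0.95), Irak1 (0.92), a kinase of interleukin and Toll-like receptor signalling, Vps37d (0.92), Agpat3 (0.90), a phospholipid acyltransferase, and Maml1 (0.90), a coactivator of Notch. In deviations from the group means their r was 0.84, 0.81, 0.77, 0.75 and 0.72, so the likeness did not come only from the group means. None of the other members was among them.

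**Figure D4:**
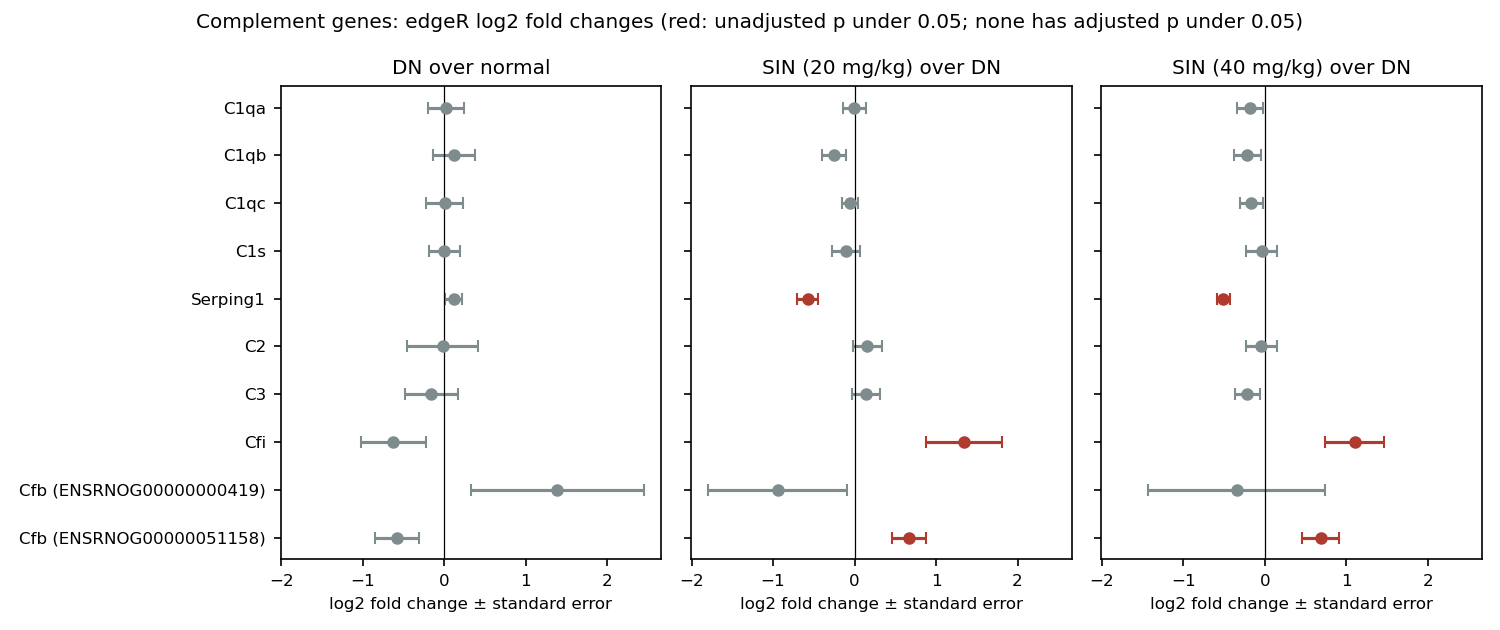
Log2 fold change with its standard error (x axis) of each complement gene (y axis) in 3 comparisons, DN over normal and each SIN dose over DN, from edgeR's quasi-likelihood test. Red points have an unadjusted p under 0.05, which are Serping1 to the left of 0 and Cfi and Cfb (ENSRNOG00000051158) to the right at both doses, and 0 members have an adjusted p under 0.05.

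Factor I had fold changes of the opposite sign to C1 inhibitor. Cfi (ENSRNOG00000053400) was at 4.10, 2.23, 4.74 and 3.69 CPM in the normal rats and at 1.15, 2.17, 4.34 and 1.86 CPM in the DN rats. It was at 11.4, 4.61, 4.35 and 3.86 CPM in the SIN (20 mg/kg) rats and at 4.70, 4.31, 6.25 and 5.18 CPM in the SIN (40 mg/kg) rats. DN rat 3 was the one DN rat at the level of the SIN groups, and SIN (20 mg/kg) rat 1 was far above the other rats. The counts behind these values were low, 26 to 265 per rat.

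Cfi had log2 fold changes of 1.34 (SE 0.47, adjusted p = 0.273, edgeR) at 20 mg/kg and 1.10 (SE 0.36, adjusted p = 0.213, edgeR) at 40 mg/kg. Without SIN (20 mg/kg) rat 1 it was 0.83 at that dose (adjusted p = 0.565, edgeR, unadjusted p = 0.0708). Without DN rat 3 it was 1.81 at 20 mg/kg and 1.57 at 40 mg/kg. DN over normal was -0.63 (SE 0.40, adjusted p = 0.281, edgeR), and -1.09 without DN rat 3. Over the 16 rats Cfi and Serping1 had r = -0.73 (permutation p = 0.001, adjusted p = 0.0075) and rho = -0.75 (permutation p = 0.00139, adjusted p = 0.0125), and r = -0.67 without the 2 farthest rats. In deviations from the group means r was -0.40, so much of this relation lay between the groups.

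Factor B was split over 2 genes of the table. The main one, ENSRNOG00000051158, was at 7.26, 9.97, 12.1 and 5.74 CPM in the normal rats, 7.30, 6.12, 6.26 and 3.71 CPM in the DN rats, 7.53, 9.39, 9.98 and 10.5 CPM in the SIN (20 mg/kg) rats, and 9.45, 9.19, 7.33 and 11.7 CPM in the SIN (40 mg/kg) rats. All 8 SIN rats lay above all 4 DN rats, though SIN (40 mg/kg) rat 3 and SIN (20 mg/kg) rat 1 were only just above DN rat 1. Groups separated upward in 5.34% of all genes tested at 20 mg/kg and in 6.43% at 40 mg/kg. For this gene the log2 fold change was 0.67 (SE 0.21, adjusted p = 0.27, edgeR) at 20 mg/kg, 0.69 (SE 0.23, adjusted p = 0.215, edgeR) at 40 mg/kg and -0.58 (SE 0.27, adjusted p = 0.152, edgeR) for DN over normal.

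The other Cfb gene, ENSRNOG00000000419, was between 0 and 4.12 CPM. It held 39.7% of all Cfb counts in DN rat 3 and 0% in DN rat 4 and SIN (40 mg/kg) rat 3. In DN rat 4 and SIN (40 mg/kg) rat 3 the other Cfb gene and its neighbour C2 had whole counts, whereas in most other rats the counts of all 3 were fractions. Reads can thus have been divided among these genes when they were counted, and single values of the 2 Cfb genes and of C2 are uncertain. With both summed, Cfb was at 8.19, 10.7, 13.1 and 5.74 CPM in the normal rats, 8.50, 7.79, 10.4 and 3.71 CPM in the DN rats, 8.13, 10.6, 10.99 and 11.3 CPM in the SIN (20 mg/kg) rats and 11.6, 11.7, 7.33 and 12.6 CPM in the SIN (40 mg/kg) rats. The sums of the DN and SIN groups overlapped. The sum had log2 fold changes of 0.43 (SE 0.27, adjusted p = 0.443, edgeR, unadjusted p = 0.148) at 20 mg/kg and 0.51 (SE 0.29, adjusted p = 0.400, edgeR, unadjusted p = 0.116) at 40 mg/kg. The unadjusted difference of factor B was therefore not kept once its genes were put together. This sum was added after the values were seen.

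Cfb (ENSRNOG00000051158) was most like the assembled transcript MSTRG.5289 (r = 0.85), Hivep2 (0.82), Huwe1 (0.80), Exph5 (0.79) and Lrba (0.79) over the 16 rats. The r of Hivep2 was 0.63 and that of Exph5 0.54 without the 2 farthest rats.

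The C1q chains, C2 and C3 had no unadjusted p under 0.05 for either dose against DN. C1qa was at 28.4, 32.2, 27.0 and 19.8 CPM at 20 mg/kg and at 23.9, 16.1, 25.5 and 28.8 CPM at 40 mg/kg, and C1qc at 33.5, 35.6, 29.5 and 28.6 CPM and at 31.3, 21.2, 31.5 and 33.4 CPM. SIN (40 mg/kg) rat 2 was the lowest of the 16 rats in both. C1qb was at 16.1, 20.8, 15.5 and 15.9 CPM at 20 mg/kg and at 15.998, 13.5, 18.5 and 21.4 CPM at 40 mg/kg, and 3 of the 4 rats at 20 mg/kg were below all DN rats.

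C1qb had log2 fold changes over DN of -0.25 at 20 mg/kg (95% interval -0.53 to 0.04, adjusted p = 0.409, edgeR) and -0.22 at 40 mg/kg (95% interval -0.54 to 0.10, adjusted p = 0.513, edgeR). That of C1qa was -0.00 (95% interval -0.29 to 0.28) and -0.18 (95% interval -0.51 to 0.14), and that of C1qc -0.06 (95% interval -0.26 to 0.14) and -0.17 (95% interval -0.44 to 0.11). C2 was at 16.6, 13.9, 16.3 and 11.9 CPM at 20 mg/kg and at 16.1, 13.4, 9.98 and 11.6 CPM at 40 mg/kg, with log2 fold changes over DN of 0.16 (SE 0.18) and -0.04 (SE 0.20). C3 was at 26.6, 23.2, 23.6 and 15.1 CPM at 20 mg/kg and at 14.8, 16.1, 16.05 and 22.1 CPM at 40 mg/kg, with log2 fold changes over DN of 0.14 (SE 0.17) and -0.22 (SE 0.15). Of 17 macrophage markers tested at each dose against DN, 1 was higher and 3 lower at an unadjusted p under 0.05 at 20 mg/kg, 0 higher and 1 lower at 40 mg/kg, and 0 were called by edgeR. Of all genes, 15.4% and 17.1% had an unadjusted p under 0.05. By the normal approximation, no 95% interval of a C1q chain over DN went below -0.54 or above 0.28, and each included 0. Each interval holds for its own chain and dose with 4 rats per group, and some, such as that of C1qc at 20 mg/kg, were narrower.

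Between the doses, 0 of 10 members had an adjusted or unadjusted p under 0.05 in edgeR's quasi-likelihood test, beside 0.00639% of 15657 genes at the adjusted and 4.98% at the unadjusted threshold. DESeq2 and edgeR's exact test called 0 members too, beside 0.113% and 0.0383% of all genes. The largest difference of a well-measured member was in C3, lower at 40 mg/kg by a log2 fold change of -0.37 (95% interval -0.74 to 0.00, adjusted p = 0.961, edgeR), and the rats of the groups overlapped. For Serping1 the difference of 40 over 20 mg/kg was 0.05 (95% interval -0.19 to 0.29), for Cfi -0.25 (95% interval -0.92 to 0.41) and for Cfb (ENSRNOG00000051158) 0.01 (95% interval -0.33 to 0.34). The doses were thus not distinguished in any member, and the interval of Cfi is wide.

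Other genes of the pathway were called between the DN and normal groups. Of 11 tested genes of initiation and the classical and lectin pathways, 3 rose in DN and 0 fell. Masp2, the lectin pathway protease that cleaves C4 and C2, was at 2.13 ± 0.656 CPM (SD, n = 4) in DN and 0.697 ± 0.0487 CPM (SD, n = 4) in normal rats, a log2 fold change of 1.60 (SE 0.31, adjusted p = 0.0120, edgeR). C1rl, a C1r-like protease, rose by 0.74 (SE 0.20, adjusted p = 0.0328, edgeR) and Mbl1, a mannose-binding lectin, by 0.71 (SE 0.21, adjusted p = 0.0422, edgeR). Mbl1 was not called without normal rat 2.

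Of 7 tested genes of the alternative and terminal pathways, 1 fell and 0 rose. C7, a part of the membrane attack complex, was at 162 ± 29.7 CPM (SD, n = 4) in DN and 318 ± 110 CPM (SD, n = 4) in normal rats (log2 fold change -0.97, SE 0.24, adjusted p = 0.0249, edgeR), with no overlap. The groups did not overlap, in either direction, in 24.3% of all genes tested. Of 9 tested regulators, 2 rose and 1 fell. Cd59, the membrane inhibitor of that complex, was at 105 ± 10.2 CPM (SD, n = 4) in DN and 200.3 ± 27.3 CPM (SD, n = 4) in normal rats (log2 fold change -0.92, SE 0.12, adjusted p = 0.00396, edgeR), again with no overlap. Clu, clusterin, which is also a marker of tubular injury, was at 299.9 ± 129 CPM (SD, n = 4) in DN and 133 ± 23.5 CPM (SD, n = 4) in normal rats (log2 fold change 1.17, SE 0.29, adjusted p = 0.0260, edgeR), with an overlap. Cpn1, the carboxypeptidase that inactivates anaphylatoxins, rose by 0.71 (SE 0.21, adjusted p = 0.0391, edgeR), and was not called without normal rat 2. Of 10 tested receptors, 1 rose, C1qbp, a mitochondrial protein that also binds C1q (log2 fold change 0.42, SE 0.09, adjusted p = 0.0164, edgeR).

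The medians of these lists, in the same order, were 0.11, 0.03, -0.07 and 0.23, beside 0.00 over all genes tested. So 8 of 37 other complement genes tested were called, in both directions, beside 19.5% of all genes. Masp2, C1rl, C7, Clu, Cd59 and C1qbp were also called without normal rat 2.

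**Figure D5:**
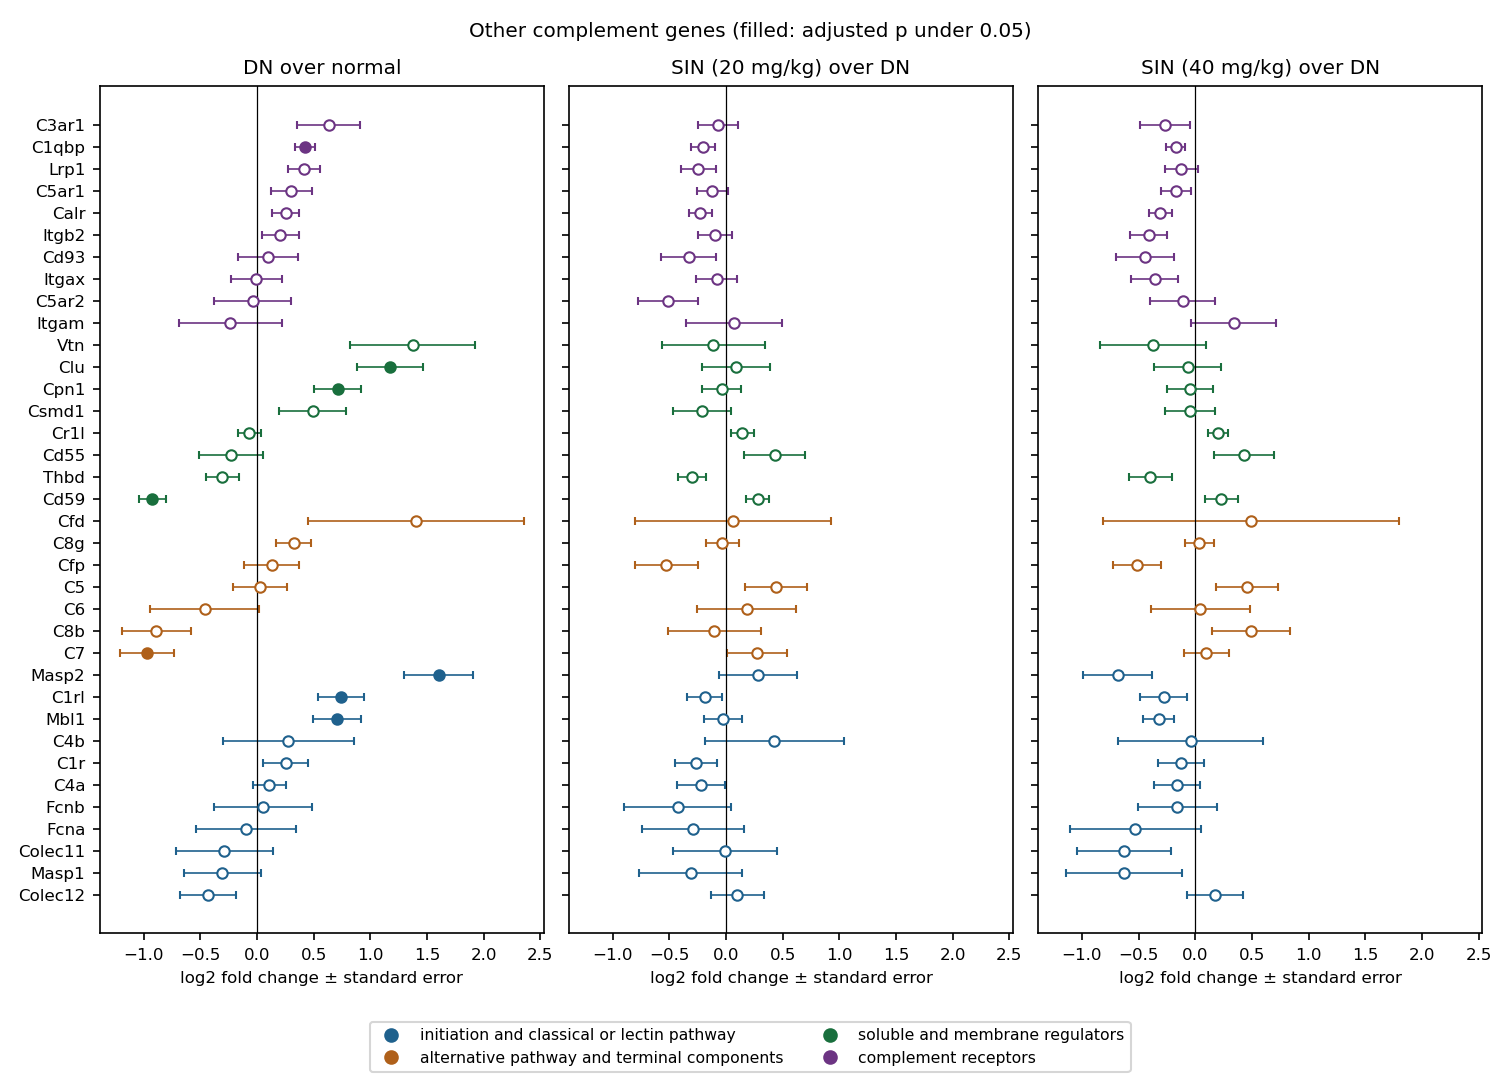
Log2 fold change with its standard error (x axis) of 36 of the 37 other complement genes tested (y axis, coloured by role) in DN over normal and in each SIN dose over DN. Filled points have an adjusted p under 0.05 in edgeR's quasi-likelihood test, which 8 genes reach in DN over normal and 0 reach at either dose of SIN over DN.

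In the SIN groups against DN, 0 of the 37 genes had an adjusted p under 0.05 in edgeR's quasi-likelihood test, and 3 at 20 mg/kg (8.11%) and 6 at 40 mg/kg (16.2%) had an unadjusted p under 0.05. These shares were below the 15.4% and 17.1% of all genes, so the list did not stand out, and the values that follow describe its genes of smallest p. Cd59 was at 128 ± 8.70 CPM (SD, n = 4) at 20 mg/kg, above all DN rats, with a log2 fold change over DN of 0.28 (SE 0.10, adjusted p = 0.285, edgeR). An upward separation was found in 5.34% of all genes at that dose. Thbd, thrombomodulin, had a log2 fold change of -0.30 at that dose (SE 0.12, adjusted p = 0.304, edgeR). Calr, calreticulin, a chaperone and C1q receptor, had log2 fold changes of -0.23 at 20 mg/kg (SE 0.10, adjusted p = 0.322, edgeR) and -0.31 at 40 mg/kg (SE 0.10, adjusted p = 0.209, edgeR). Every SIN rat was below every DN rat in Calr at both doses, a separation also found in 3.65% and 3.99% of all genes.

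At 40 mg/kg Mbl1 was at -0.32 (SE 0.14, adjusted p = 0.276, edgeR), Masp2 at -0.68 (SE 0.30, adjusted p = 0.290, edgeR), and Cfp, properdin, which stabilises the alternative convertase, at -0.52 (SE 0.21, adjusted p = 0.268, edgeR) in log2 fold change over DN. Itgb2, the shared chain of the receptors CR3 and CR4, was at -0.41 (SE 0.16, adjusted p = 0.259, edgeR), and Cr1l, a membrane regulator of C3 cleavage, at 0.20 (SE 0.09, adjusted p = 0.292, edgeR).

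A list of acute phase and NF-kB targets was read in the same way, beside the 19.5% of all genes called in DN over normal. Of its 10 tested genes, 1 rose in DN, Fgb, a fibrinogen chain (log2 fold change 3.42, SE 0.46, adjusted p = 0.00421, edgeR), and 2 fell, Vcam1 (-0.98, SE 0.14, adjusted p = 0.00457, edgeR) and Cp, ceruloplasmin (-0.98, SE 0.15, adjusted p = 0.00542, edgeR). At both doses against DN, 0 of the 10 had an unadjusted p under 0.05, beside 15.4% and 17.1% of all genes. Without normal rat 2, Icam1, an adhesion molecule, was also called between DN and normal (0.37, SE 0.10, adjusted p = 0.0300, edgeR).

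Markers of other cell types were read beside them. Of all genes tested between DN and normal, 19.5% had an adjusted and 36.9% an unadjusted p under 0.05 in edgeR's quasi-likelihood test. Between DN and normal, 3 of 9 fibroblast and mesangial markers rose and 2 fell, led by Tagln, a protein of contractile cells (log2 fold change 1.81, SE 0.29, adjusted p = 0.00640, edgeR). Of 10 renal epithelial markers 1 fell, Umod, uromodulin of the thick ascending limb (-0.77, SE 0.16, adjusted p = 0.0154, edgeR). Of 4 tested markers of fat, adrenal and liver 1 rose, Cidec, a lipid droplet protein (0.75, SE 0.14, adjusted p = 0.00954, edgeR), and of 10 tested lymphocyte and neutrophil markers 0 were called by edgeR, with 0 higher and 1 lower at an unadjusted p under 0.05. Without normal rat 2 the median of the lymphocyte and neutrophil list moved from -0.04 to 0.41, and 1 of 11 tested was called, Cd4, higher in DN (0.56, SE 0.13, adjusted p = 0.0185, edgeR). In that fit 10% of all genes were called higher. Without that rat Aqp2, the water channel of the collecting duct, was also called (1.58, SE 0.46, adjusted p = 0.0392, edgeR). Against DN, 0 markers of these lists were called by edgeR at either dose. Cd4, a T cell coreceptor that rat macrophages also carry, was lower in every SIN rat than in every DN rat (-0.62 at 20 mg/kg, SE 0.10, adjusted p = 0.141, edgeR, and -0.42 at 40 mg/kg, SE 0.14, adjusted p = 0.216, edgeR). Such a separation was found in 3.65% of all genes at 20 mg/kg and in 3.99% at 40 mg/kg. The part of these markers in the complement values was not tested.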

How the data were processed

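Renal RNA of the 16 rats, with 4 rats to a group, was sequenced after oligo(dT) selection. The authors deposited estimated counts per gene, before normalization, in a single table. The submitters' processing notes name TopHat, Bowtie, RSEM and edgeR, and the paper's methods name SeqPrep and Sickle for trimming and the Ensembl rat genome Rnor_6.0. No strand setting of the counting is given in the sources used here. Of all values 13.8% were not whole, and all were rounded for the tests. Columns were joined to rats by library number. The 4 library columns that no sample record names and the 5 columns of group means were not used.

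CPM used TMM factors over 16 rats, log2 CPM a prior count of 2, and RPKM the gene length in the deposited table. Each comparison was fitted on its own 8 rats with edgeR 4.0.16 (filterByExpr, TMM, glmQLFit and glmQLFTest, two-sided), with Benjamini-Hochberg adjustment over all genes tested and a call at an adjusted p under 0.05. Standard errors are the log2 fold change divided by the root of the F statistic, and 95% intervals use the normal approximation. They are therefore narrower than the quasi-likelihood test implies. For Cfb (ENSRNOG00000051158) in DN over normal the interval was -1.11 to -0.05, while that test gave an unadjusted p = 0.0599. Correlations between members used 100000 permutations of the rats. In simulated data for SIN (20 mg/kg) over DN, the quasi-likelihood test called 97% of 200 genes changed by a log2 fold change of 2. Genes of low count were not among those changed, and the members' own changes were smaller than 2. The simulation therefore does not measure how well changes of the members' size would be called. Alternatives were DESeq2 1.42.0, edgeR's exact test, RLE factors, no filter, at least 10 counts in every rat, the replicate number as a block, a joint fit of all 16 rats, each rat left out in turn, a prior count of 0.25, deviations from the group means and, added later, both Cfb genes summed.

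All members are reported. Of the other gene lists, genes with an adjusted p under 0.05 are named, at most 4 by smallest p, or the 2 of smallest p where none pass, not all of which are given, and for the C1q mean, C3, Cfb and Serping1 the 5 genes of highest r. Some items are not reported here. The members and lists were chosen with earlier results of these data known. Promoters came from RefSeq (GRCr8), another build than the files use, so from its gene table only the order of neighbouring genes was taken. R 4.3.3 and Python 3.11.15 were used.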

Additional observations from a re-analysis of the deposited data

Results flagged for a closer look

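In 7 of 40 combinations of a complement gene and a group of 4 rats, 1 rat stood apart from the other 3 by Dixon's ratio of gap to range, above its 95% critical value, which chance alone exceeds in about 5% of groups. In 4 of them the rat was normal rat 2, with C1qa at 42.4 CPM (20.2 to 22.5 CPM in the other normal rats), C1qb at 31.1 CPM (13.1 to 15.4 CPM), C1qc at 53.1 CPM (24.7 to 27.7 CPM) and C2 at 29.4 CPM (7.03 to 9.70 CPM). In the SIN (20 mg/kg) group, rat 2 stood apart in C1qb at 20.8 CPM (15.5 to 16.1 CPM in the others) and rat 1 in Cfi at 11.4 CPM (3.86 to 4.61 CPM). In the DN group, rat 4 stood apart in Serping1 at 134 CPM (120 to 122 CPM). These genes are not independent of each other, since the C1q chains varied together. Why normal rat 2 stood apart was not tested.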

How the results depend on the processing

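The count of called members was 0 in all 6 comparisons and stayed at 0 under no filter, RLE factors, the replicate block and the Cfb sum. DESeq2 and edgeR's exact test each called 1 member, Serping1, in both SIN groups against DN and in both against normal, beside 1.74% to 11.2% of all genes by DESeq2 and 0.566% to 9.61% by the exact test. Against normal, the fit of all 16 rats called 1 at 20 mg/kg and the minimum of 10 counts called 1 at 40 mg/kg, Serping1 in each. Leaving out single rats gave 0 to 4 called members for DN over normal (4 without normal rat 2) and 0 to 1 for each SIN group over normal (C2 without normal rat 2 at 20 mg/kg, Serping1 without normal rat 3 at 40 mg/kg). In the other 3 comparisons it gave 0. The cause of these differences was not tested.

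Members near 0 changed sign. With at least 10 counts in every rat, DN over normal was -0.000432 for C1qc and -0.00492 for C1s, and SIN (20 mg/kg) over DN was 0.00139 for C1qa. With the replicate number as a block, DN over normal was -0.0177 for C1s and 0.24 for C2, and SIN (40 mg/kg) over DN was 0.20 for Cfb (ENSRNOG00000000419). Same-numbered rats of different groups correlated between -0.24 and 0.24 in deviations from the group means. The best match with a rat of any number had r of 0.05 to 0.24. With 4 rats per group, such values can neither show nor exclude a pairing by number. The block changed no call. With single rats left out, DN over normal ranged from -0.0901 to 0.33 for C1qa, -0.0117 to 0.48 for C1qb, -0.11 to 0.32 for C1qc, -0.16 to 0.14 for C1s, -0.22 to 0.71 for C2 and -0.36 to 0.32 for C3. SIN (20 mg/kg) over DN ranged from -0.10 to 0.12 for C1qa and -0.24 to 0.0585 for C1s. SIN (40 mg/kg) over DN ranged from -0.18 to 0.11 for C1s, -0.17 to 0.0580 for C2 and -0.82 to 0.53 for Cfb (ENSRNOG00000000419), and Serping1 between the doses from -0.0226 to 0.15. Serping1, Cfi and Cfb (ENSRNOG00000051158) over DN kept their direction in every alternative.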
